A study of Mus musculus with 3 samples.

Results

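The genes of the major histocompatibility complex (MHC) and of its antigen presentation pathway were followed in Hepa1c1c7 cells, a mouse hepatoma line. The members were the array's gene names beginning with H2- (the mouse MHC, leaving out the H2-Ke genes) and 14 genes that load, trim or switch on MHC molecules. This gave 56 members of 36870 gene names on the array, 42 of them named H2-, with 96 of 56605 probes. By role, 32 were class I genes, 10 were class II genes, 10 were accessory genes of class I and 4 were transcription factors or coactivators of class II. Cells had received a vector carrying Cd74, a vector carrying Tmem54 or an empty vector, and total RNA of each was hybridised to 1 Agilent array with 1 colour (Cy3). The labels give no number of cultures, no time after transfection, no promoter of the vectors, and nothing on whether the cells were a clone or a pool. With 1 array per vector there was no spread between cultures, so no difference was tested, and culture and vector cannot be told apart.

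MHC class I molecules sit on nearly all nucleated cells and show peptides made by the proteasome to CD8+ T cells. The peptides enter the endoplasmic reticulum through the TAP transporter and are loaded onto a class I heavy chain paired with beta-2-microglobulin. MHC class II molecules are normally made by professional antigen-presenting cells, and they are assembled with the invariant chain, which is the product of Cd74 itself. The class II chains need the coactivator Ciita for their transcription, whereas class I genes use its relative Nlrc5 and respond to interferon gamma. Hepatocytes express class I at low to moderate levels and little class II.

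All 3 arrays lay on 1 slide and came from 1 scan. Between 55.7% and 57.2% of spots other than controls were well above background, 0 were saturated, and the lowest signal well above background was between 13.1 and 13.9. The Cd74 probe had a processed signal of 10855 with the Cd74 vector, 22.4 with the Tmem54 vector and 26.8 with the empty vector. The Tmem54 probe was well above background with the Tmem54 vector alone (19747), against 2.83 with the Cd74 vector and 2.78 with the empty vector. Of 10 hepatocyte markers, 5 were well above background on each array, among them Alb, Afp, Trf and Serpina1b, whereas Ttr, Apoa1, Apob, Hnf4a and Fgb were not. Of 19 markers of leucocytes and antigen-presenting cells, 11, 11 and 12 were well above background with the Cd74, Tmem54 and empty vectors. Their summed signals were 60833, 62607 and 62314 in the same order, and most of each sum came from Siglech. The defining markers Adgre1, Itgax, Tyrobp, Cd79a, Cd79b, Xcr1 and Clec9a were at background on every array. Ptprc (3096 with Cd74, 3461 with Tmem54 and 3711 with the empty vector), Csf1r, Itgam, Cd14, Cd68 and Lyz2 were well above background on every array. Cd68 differed from the empty vector by 0.52 ± 0.20 on the log2 scale with Cd74, and the part of such markers in the members' values was not tested.

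A larger share of class I than of class II genes was detected, with only 10 genes in class II. Of the 32 class I genes, 22 were well above background, against 4 of the 10 class II genes, and all 10 class I accessory genes and all 4 class II regulators were detected. Each of these 40 members was well above background on all 3 arrays. Every difference of a member's probe given with an error below was therefore measured on both sides. Over the whole array, 15816 genes with a reference symbol were detected, and 24900 genes were compared without a filter on dim probes. The class I share was near that of all genes, and the class II share was below it. Probes of 6 detected class I genes share at least 20 bases with a probe of another gene name. Their detections need not be separate, and the difference between the classes was not tested. The median signal of the 22 class I genes was 1145 with the Cd74 vector, 1667 with the Tmem54 vector and 1199 with the empty vector. The corresponding medians of the 4 class II genes were 242, 233 and 235. These are medians over probes of different design, and probe brightness is not a measure per transcript, so they describe the signals and do not rank single genes. The class I median with Tmem54 lies between H2-Q1 (2036) and H2-M2 (1299), and that with the empty vector between H2-M2 (1279) and H2-Q1 (1119). The higher median with Tmem54 thus follows from H2-Q1 and is not a shift of the class. The median of the 22 differences of Tmem54 from the empty vector was -0.01, with 15 below 0.

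The 16 members that stayed at background were H2-Aa, H2-Ab1, H2-DMb2, H2-Ea-ps, H2-Eb2 and H2-Oa of class II, and H2-M1, H2-M10.1, H2-M10.2, H2-M10.3, H2-M10.4, H2-M10.5, H2-M10.6, H2-M5, H2-M9 and H2-T18 of class I. Among them are both chains of the classical class II molecule I-A (H2-Aa and H2-Ab1). H2-Aa had a signal of 2.74 with the Cd74 vector, 2.86 with the Tmem54 vector and 2.69 with the empty vector. The brightest of the 16 was H2-Ab1, with signals of 12.7 with Cd74, 12.8 with Tmem54 and 6.05 with the empty vector. Among the detected members, H2-T24 came nearest to that limit on the Cd74 array, with 17.5 with Cd74, 21.8 with Tmem54 and 33.9 with the empty vector. Transcripts of the I-A chains, which the product of Cd74 escorts, were thus not detected with the Cd74 vector either.

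**Figure D1:**
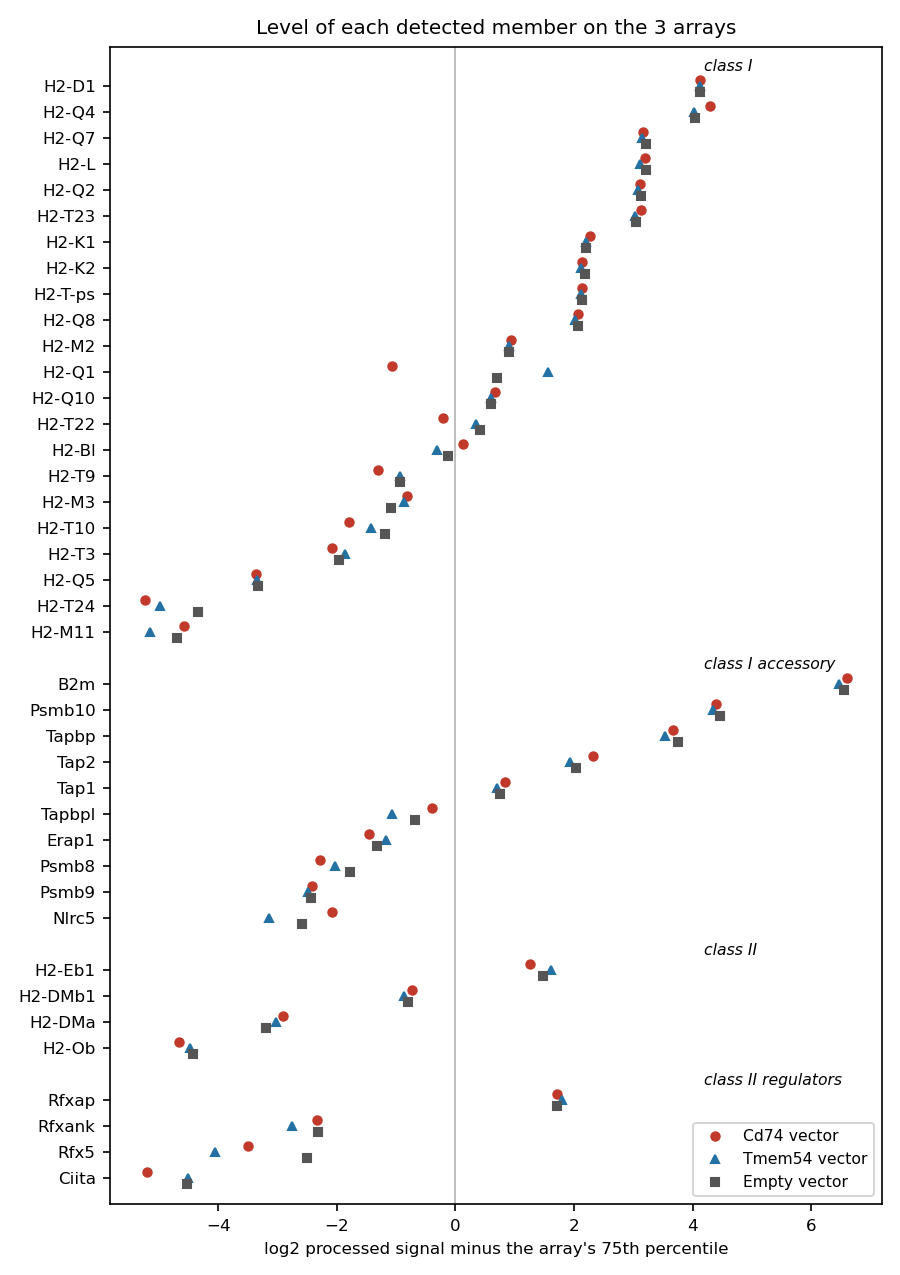
Levels of the 40 detected members on each array, as the log2 processed signal scaled to the 75th percentile of that array (horizontal axis), grouped by role and ordered by the level with the empty vector. Circles are the Cd74 vector, triangles the Tmem54 vector and squares the empty vector, 1 array each. For most members the 3 symbols lie almost on top of each other; H2-Q1, Rfx5, Nlrc5 and H2-T24 are spread widest.

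Differences between arrays are given as log2 values after subtracting each array's 75th percentile, so that a value of -1 is 2-fold lower. The error after ± is the scanner software's model error for the 2 spots compared. It covers noise within an array only, and for bright spots it follows mainly from a preset multiplicative error of 0.1. A member was counted when it differed by at least 2-fold. Both comparisons with the empty vector use the same empty vector array, so they are not independent of each other.

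With the Cd74 vector, 0 of the 40 detected members were at least 2-fold higher than with the empty vector and 2 were at least 2-fold lower, H2-Q1 and Rfx5. Over all 15649 genes, the shares past 2-fold were 1.03% upward and 1.4% downward, or 2.43% in either direction. The 2 members make up 5.0% of the 40, and the second of them lay exactly at the threshold. The median difference of the 40 members was -0.01, against 0.01 over all genes. With the Tmem54 vector, 0 members were at least 2-fold higher than with the empty vector and 1 was lower, Rfx5 (2.5% of 40). The share of all 15541 genes was 1.34% in either direction, 0.528% higher and 0.811% lower, and the medians were -0.05 for the members and 0.00 for all genes. Between the Cd74 and Tmem54 vectors, 1 member was higher with Cd74 (Nlrc5) and 1 was lower (H2-Q1). Over 15442 genes, the shares were 1.64% upward, 1.7% downward and 3.34% either, and the members' median was 0.05, against 0.03 over all genes. These shares include bounds, from genes detected on a single array of the pair, whereas the 40 members have none. Over the 14493 genes well above background on all arrays, the shares in either direction were 1.26% for Cd74 and 0.552% for Tmem54 against the empty vector, and 2.14% for Cd74 against Tmem54. With 1 or 2 members past the threshold, nothing is read from the members' shares.

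**Figure D2:**
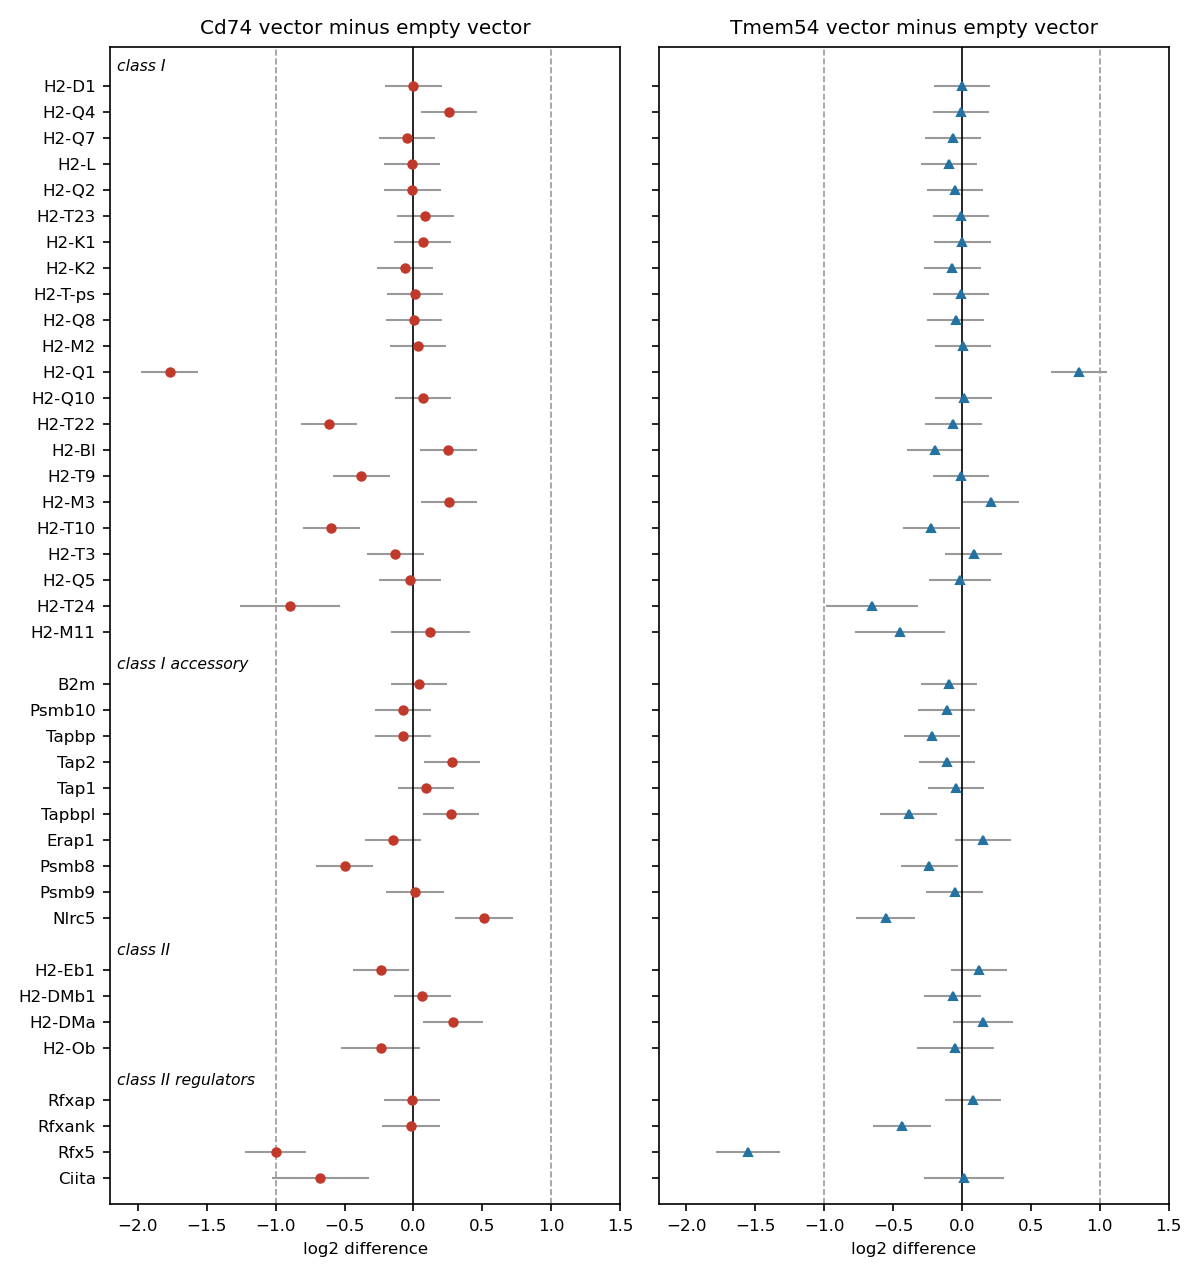
Log2 difference of each detected member with the Cd74 vector (left) and the Tmem54 vector (right) from the empty vector. Horizontal bars are the model error within the arrays, and dashed lines mark a 2-fold difference. H2-Q1 lies at -1.77 with Cd74 and 0.85 with Tmem54, and Rfx5 lies at -1.0 and -1.55, while most class I genes sit on 0.

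The classical class I genes differed little. H2-K1 and H2-D1 encode the heavy chains that present peptides to CD8+ T cells. The H2-K1 probe (mm9 chr17:34133984-34134043, minus strand) had signals of 3150 with Cd74, 3183 with Tmem54 and 3148 with the empty vector. H2-D1 had signals of 11419 with Cd74, 12064 with Tmem54 and 11945 with the empty vector. Against the empty vector the log2 difference of H2-K1 was 0.07 ± 0.20 with Cd74 and 0.00 ± 0.20 with Tmem54, and that of H2-D1 was 0.00 ± 0.20 with either vector. The second detected H2-K1 probe was about as even, at 1826 with Cd74, 1691 with Tmem54 and 1746 with the empty vector.

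A probe named H2-L, for a classical heavy chain that some inbred strains lack, gave 6033 with Cd74, 6018 with Tmem54 and 6356 with the empty vector. The array's coordinates place it only 635 bases from the H2-D1 probe. Class I genes are close copies of each other, and a probe drawn for 1 gene can bind the transcript of another, so the name on a probe need not be the only source of its signal. The probes of 6 of the 40 detected members shared a run of at least 20 bases with a probe of another gene name (H2-K1, H2-L, H2-Q2, H2-Q8, H2-T-ps and H2-T23). The probes of H2-K1, H2-L and H2-T23 are shown because they carry the same 29 bases, in capitals, although they are assigned to a classical gene of the K region, a classical gene of the D region and a nonclassical gene of the T region:
H2-K1: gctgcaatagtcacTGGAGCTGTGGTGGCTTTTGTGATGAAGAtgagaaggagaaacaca
H2-L: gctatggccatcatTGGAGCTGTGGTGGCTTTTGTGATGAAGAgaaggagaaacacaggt
H2-T23: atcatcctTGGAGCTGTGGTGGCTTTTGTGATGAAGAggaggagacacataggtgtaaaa
The H2-L probe lies at mm9 chr17:35403191-35403250 on the plus strand and the H2-T23 probe at chr17:36167338-36167574 on the minus strand. The H2-T23 span exceeds the 60 bases of the probe. H2-T23 encodes Qa-1, which presents leader peptides of other class I chains to the NKG2A receptor of natural killer cells. Its signal was 5729 with Cd74, 5668 with Tmem54 and 5644 with the empty vector, a difference of 0.09 ± 0.20 for Cd74 and -0.01 ± 0.20 for Tmem54. How much the 3 probes read in common was not tested.

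The pattern of the Q region was even except for 1 gene. H2-Q1, a nonclassical class I gene, had a signal of 314 with the Cd74 vector, 2036 with the Tmem54 vector and 1119 with the empty vector. Thus the lowest value came from the Cd74 array and the highest from the Tmem54 array. The log2 difference from the empty vector was -1.77 ± 0.20 with Cd74, which is 3.41-fold lower, and 0.85 ± 0.20 with Tmem54. Between Cd74 and Tmem54 it was -2.62 ± 0.20, or 6.15-fold. Of all 15649 genes compared between Cd74 and the empty vector, 60 lay lower than H2-Q1. The gene has 1 detected probe (mm9 chr17:35461859-35461918, plus strand), and its longest run in common with the probe of any other detected member was 9 bases. Probes were compared with each other and not with the transcripts of other class I genes, so what else the H2-Q1 probe binds was not tested. Bases 16 to 45 of that probe are:
H2-Q1: ctttacagagttgtaatgtttgcctgattt
Albumin, a hepatocyte marker, had the same order of arrays, with signals of 2993 with Cd74, 10261 with Tmem54 and 5727 with the empty vector (log2 differences of -0.87 ± 0.20 and 0.83 ± 0.20 from the empty vector). Trf had a smaller difference with Cd74 (-0.32 ± 0.20) and 0.08 ± 0.20 with Tmem54. The Afp differences were 0.02 and 0.05, and those of Serpina1b were 0.07 and 0.01. Whether the state of the cells plays a part in the H2-Q1 difference was not tested. In bulk RNA, fewer cells that express a gene and less RNA per cell cannot be told apart.

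The other 6 Q genes lay within 0.26 of the empty vector in both comparisons. H2-Q2 had signals of 5693 with Cd74, 5821 with Tmem54 and 5985 with the empty vector. H2-Q4 was the only one of the 6 beyond 0.2, with 12889 with Cd74, 11309 with Tmem54 and 11273 with the empty vector, a difference of 0.26 ± 0.20 for Cd74 and -0.01 ± 0.20 for Tmem54. H2-Q7, the gene of the Qa-2 antigen, had 5885 with Cd74, 6136 with Tmem54 and 6368 with the empty vector. Differences of the remaining 3 were no larger than 0.07 in either comparison: H2-Q8 (2753 with Cd74, 2803 with Tmem54 and 2871 with the empty vector), H2-Q10, a secreted class I chain of the liver (1039, 1054 and 1037 in the same order), and the dim H2-Q5 (63.8, 67.8 and 67.9). In the K region, H2-K2 had 2870 with Cd74, 3013 with Tmem54 and 3133 with the empty vector, differences of -0.06 and -0.07.

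Of 8 genes of the T region, whose nonclassical products include ligands of innate-like lymphocytes, 7 were detected. With Cd74, 4 of them lay below the empty vector by more than their model error (H2-T22, H2-T10, H2-T9 and H2-T24). The median difference of the 7 was -0.38 with Cd74 and -0.01 with Tmem54, and none reached 2-fold. H2-T22, which encodes a ligand of gamma-delta T cells, had signals of 570 with Cd74, 881 with Tmem54 and 911 with the empty vector. Its log2 difference was -0.61 ± 0.20 with Cd74 and -0.06 ± 0.20 with Tmem54, so the Cd74 array alone stood apart. The close relative H2-T10 had 189 with Cd74, 259 with Tmem54 and 299 with the empty vector, differences of -0.60 ± 0.21 and -0.22 ± 0.21. H2-T9 had 264 with Cd74, 360 with Tmem54 and 359 with the empty vector, differences of -0.38 ± 0.21 and -0.01 ± 0.20.

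H2-T9, H2-T10 and H2-T22 are near-copies, so these may not be 3 separate measurements. Their probes differ in sequence, but probes drawn from different positions of near-copies can do so. How far each probe tells the 3 transcripts apart was not tested. The longest run that the H2-T9 and H2-T10 probes share is 12 bases, in capitals, and the H2-T22 probe is given by its bases 16 to 45:
H2-T9: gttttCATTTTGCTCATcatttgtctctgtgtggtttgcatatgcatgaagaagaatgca
H2-T10: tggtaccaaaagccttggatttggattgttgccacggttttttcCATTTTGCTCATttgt
H2-T22: gtctttactgtcaccttgactggatttagg
All 3 probes lie on the minus strand of mm9 chromosome 17, H2-T22 at chr17:36175670-36175937, H2-T9 at chr17:36177171-36177230 and H2-T10 at chr17:36255918-36255977. H2-T24 showed the largest difference of the T genes, -0.89 ± 0.36 with Cd74 and -0.65 ± 0.33 with Tmem54, but from the dim signals given above and with a larger error than the other T genes. H2-T3, which encodes the thymus leukaemia antigen, had 154 with Cd74, 189 with Tmem54 and 177 with the empty vector (-0.13 ± 0.21 and 0.09 ± 0.21). The probe named H2-T-ps, a pseudogene, had 2890 with Cd74, 3019 with Tmem54 and 3002 with the empty vector, and it shares 35 bases with the H2-Q2 probe.

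Of the 12 M genes, 3 were detected. H2-M3, which presents N-formylated peptides of bacteria and mitochondria, had signals of 370 with Cd74, 378 with Tmem54 and 324 with the empty vector, differences of 0.26 ± 0.20 and 0.21 ± 0.20. H2-M2 had 1252 with Cd74, 1299 with Tmem54 and 1279 with the empty vector. Its second detected probe gave 46.6 with Cd74 and 22.8 with the empty vector and was not well above background with Tmem54 (5.72), so the 2 probes of this gene disagree. H2-M11 was dim, at 27.5 with Cd74, 19.5 with Tmem54 and 26.4 with the empty vector. H2-Bl, outside these series, had 717 with Cd74, 555 with Tmem54 and 629 with the empty vector (0.25 ± 0.20 and -0.19 ± 0.20). Over the 22 detected class I genes, 14 differed from the empty vector by less than 0.2 with Cd74 and 17 with Tmem54, and their medians were 0.00 and -0.01.

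The class II genes gave no difference of 2-fold. H2-Eb1, the beta chain of I-E and the only classical class II chain detected, had signals of 1562 with Cd74, 2113 with Tmem54 and 1921 with the empty vector. The differences were -0.23 ± 0.20 with Cd74 and 0.13 ± 0.20 with Tmem54, and the lowest of the 3 values was that with Cd74. H2-DMa and H2-DMb1 encode the chains of H2-DM, which exchanges the invariant chain fragment CLIP for antigenic peptide. H2-DMa had 87.7 with Cd74, 84.4 with Tmem54 and 75.2 with the empty vector, differences of 0.29 ± 0.22 and 0.16 ± 0.22. H2-DMb1 had 396 with Cd74, 381 with Tmem54 and 396 with the empty vector. H2-Ob, the beta chain of the H2-DM inhibitor H2-O, had 25.8 with Cd74, 31.0 with Tmem54 and 31.7 with the empty vector. The median over the 4 class II genes was -0.08 with Cd74 and 0.04 with Tmem54, against 0.00 and -0.01 for class I.

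Among the 4 regulators of class II, Rfx5 was lower with both vectors that carry an insert. It is the DNA-binding subunit of the RFX complex, which occupies the X box of class II promoters and also acts at class I promoters. Its probe (mm9 chr3:94764543-94764602) had signals of 58.1 with Cd74, 41.8 with Tmem54 and 122 with the empty vector. The empty vector was the highest of the 3. The log2 difference was -1.0 ± 0.22 with Cd74 (2-fold lower) and -1.55 ± 0.23 with Tmem54 (2.94-fold lower). Since both values were taken against the same array, a high reading on that array would lower both, and this was not tested. With the normexp background correction neither reached 2-fold (-0.47 with Cd74 and -0.72 with Tmem54), and with quantile normalization the Cd74 value was -0.99. Between Cd74 and Tmem54 the difference was 0.55 ± 0.24. The subunits Rfxap and Rfxank followed no common pattern. Rfxap had 2140 with Cd74, 2402 with Tmem54 and 2254 with the empty vector. Rfxank had 130 with Cd74, 103 with Tmem54 and 138 with the empty vector, differences of -0.02 ± 0.21 and -0.43 ± 0.21.

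Ciita, the master coactivator of class II, was close to background. Its brighter probe had 17.8 with Cd74, 30.2 with Tmem54 and 29.7 with the empty vector, a difference of -0.67 ± 0.35 for Cd74 and 0.02 ± 0.29 for Tmem54. The other detected Ciita probe had 26.4 with Cd74, 20.6 with Tmem54 and 24.5 with the empty vector and gave the opposite sign for Cd74 (0.17), so no direction is given. For its class I relative Nlrc5, signals were 155 with Cd74, 78.2 with Tmem54 and 114 with the empty vector. The empty vector lay between the others, with differences of 0.51 ± 0.21 for Cd74 and -0.55 ± 0.21 for Tmem54, and the 2 vectors with an insert differed by 1.06 ± 0.21 (2.09-fold). That difference was under 2-fold with the normexp correction (0.68) and with the mean over both probes (0.74). The second Nlrc5 probe was dim and narrower in range, at 25.7 with Cd74, 20.2 with Tmem54 and 25.3 with the empty vector.

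The machinery that makes and loads class I peptides was detected on every array and was mostly level. B2m, the light chain of class I, had signals of 63816 with Cd74, 61158 with Tmem54 and 64833 with the empty vector (0.04 ± 0.20 and -0.10 ± 0.20). The transporter subunit Tap1 had 1176 with Cd74, 1128 with Tmem54 and 1155 with the empty vector. Tap2, its partner, had 3268 with Cd74, 2632 with Tmem54 and 2813 with the empty vector, differences of 0.28 ± 0.20 and -0.11 ± 0.20. Tapasin (Tapbp), which bridges TAP and the heavy chain, had 8356 with Cd74, 7987 with Tmem54 and 9223 with the empty vector. Its relative Tapbpl, a peptide editor that works without TAP, had 496 with Cd74, 331 with Tmem54 and 429 with the empty vector (0.27 ± 0.20 and -0.39 ± 0.20). Tapbpl and Nlrc5 were each highest with Cd74 and lowest with Tmem54. On the scaled values B2m, Tap1, Tap2, Psmb9, H2-Bl, H2-M11 and further members had the same order with smaller differences between these vectors. The order was thus not particular to Tapbpl and Nlrc5.

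The immunoproteasome subunits, which replace the constitutive catalytic subunits after interferon exposure, gave no difference of 2-fold. Psmb8 had 135 with Cd74, 170 with Tmem54 and 199 with the empty vector, differences of -0.50 ± 0.21 and -0.24 ± 0.21. Psmb9 had 122 with Cd74, 123 with Tmem54 and 127 with the empty vector. Psmb10 had 13741 with Cd74, 14133 with Tmem54 and 15143 with the empty vector. Only Psmb8 of these differed by more than its model error. The trimming peptidase Erap1 had 238 with Cd74, 309 with Tmem54 and 275 with the empty vector (-0.15 ± 0.21 and 0.15 ± 0.20). Its second probe was dim and disagreed in size, as it was not well above background with Cd74 (14.0) and gave 24.9 with Tmem54 and 29.3 with the empty vector. Over the 10 accessory genes of class I the median was 0.03 with Cd74 and -0.11 with Tmem54, and 6 of the 10 differed by less than their model error in each comparison with the empty vector.

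The members of the MHC lie together on chromosome 17, which allowed the differences to be set along the map. The detected H2 probes span 3.51 Mb of mm9 (chr17:34111920-37618439). H2-Q1 lies 1.35 Mb from the H2-K2 probe, between H2-D1 at 1.29 Mb and H2-Q2 at 1.37 Mb, whose Cd74 differences were 0.00 and -0.01. The low value of H2-Q1 was therefore not shared by the nearest detected H2 genes. Among the other genes compared, the nearest was Ddx39b, an RNA helicase gene 71.3 kb away, with a difference of -0.08. A probe matched to H2-Q3, which stood outside the members, lies nearer (mm9 chr17:35496700-35496759) and differed by 0.01 with Cd74. In the T region, H2-T23 at 2.06 Mb lay between H2-T24 and H2-T22 and differed by 0.09 with Cd74, while both of these were lower. Of 105 other genes of the interval compared between Cd74 and the empty vector, 1 was at least 2-fold higher (Ly6g6e) and 1 lower (Olfr93). For Tmem54, of 102 other genes, 0 were higher and 1 was lower (Olfr93). These calls are bounds, since a single array of the pair detected the probe.

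**Figure D3:**
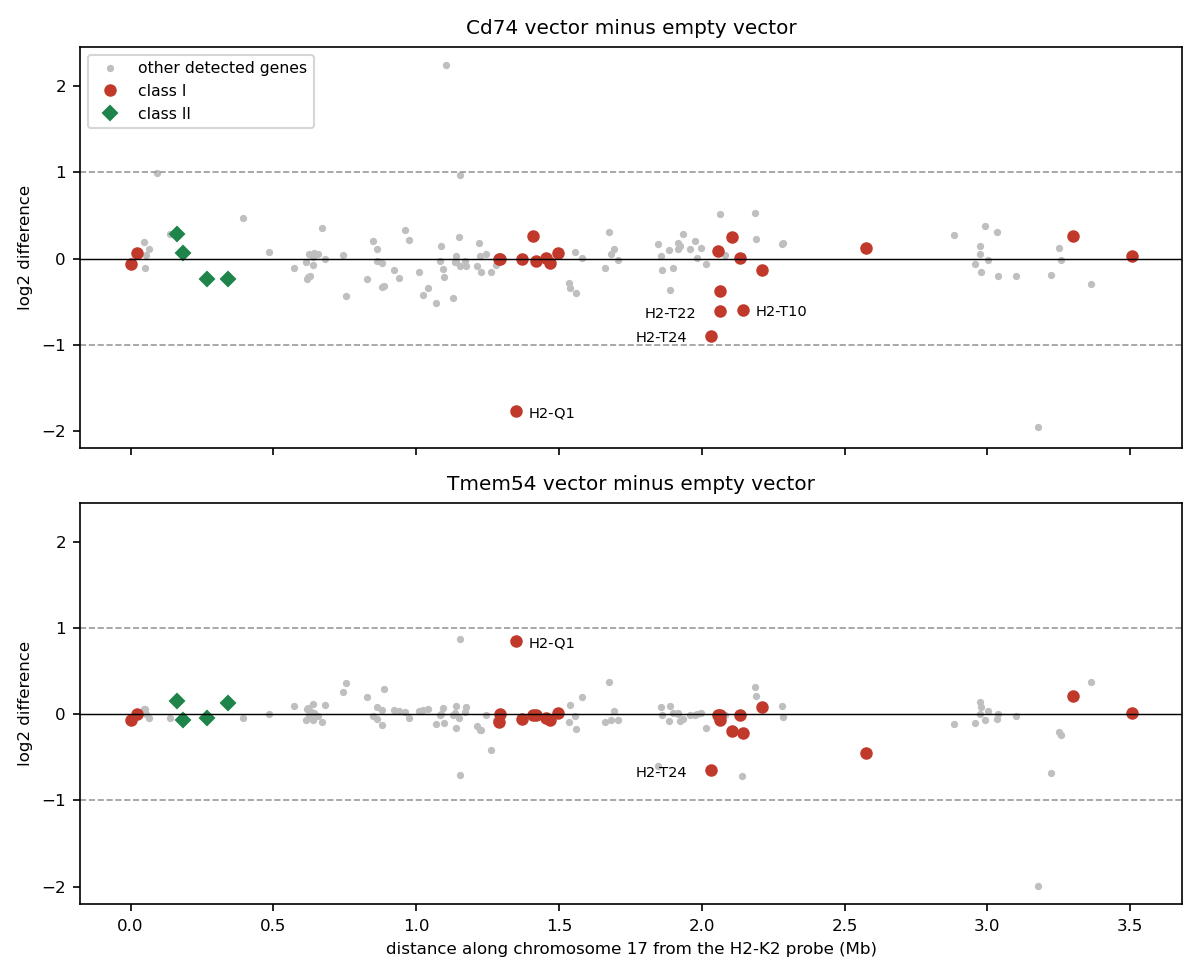
Log2 difference from the empty vector of the Cd74 vector (top) and the Tmem54 vector (bottom) along the MHC, against distance in Mb from the H2-K2 probe. Red circles are class I genes, green diamonds class II genes and grey points other detected genes (some of them bounds), and dashed lines mark 2-fold. H2-Q1 stands away from its neighbours in opposite directions in the 2 panels, and H2-T24, H2-T22 and H2-T10 lie low in the top panel.

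Promoters of class I and class II genes share a compact module of X and Y boxes, the Y box being a CCAAT element bound by NF-Y, and many class I promoters add an interferon-stimulated response element (ISRE) and an NF-kB site. The RefSeq windows from 250 bases before to 50 bases after a gene's start were searched on both strands (GRCm38.p6). A window was found for 39 of the 54 members that had a reference symbol. The CCAAT box was present in 19 of 22 class I genes (86.4%), 8 of 8 class II genes, 4 of 7 accessory genes of class I and 2 of 2 regulators, against 41.1% of 27025 genes. The ISRE core, searched as a pair of GAAA runs with 2 bases between them, was in 2 of 22 class I genes (H2-T22 and H2-T23) and in B2m and Erap1 among the accessory genes, against 3.99% of all genes. The letters TGACG, a part of the cyclic AMP element, were in 11 of 22 class I and 1 of 8 class II genes, and in 6228 of all 27025 genes. The full element TGACGTCA was in H2-Aa only among the members and in 2.03% of all genes. The NF-kB site, searched as GGGA and CC with 4 bases between them, was in 8 of 22 class I and 2 of 8 class II genes, against 22.9% of all genes. The shorter of these runs lies within the full element. A match is a run of letters and not a binding site. Only exact letters were counted, so a window without a match may still hold a variant of the element.

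**Figure D4:**
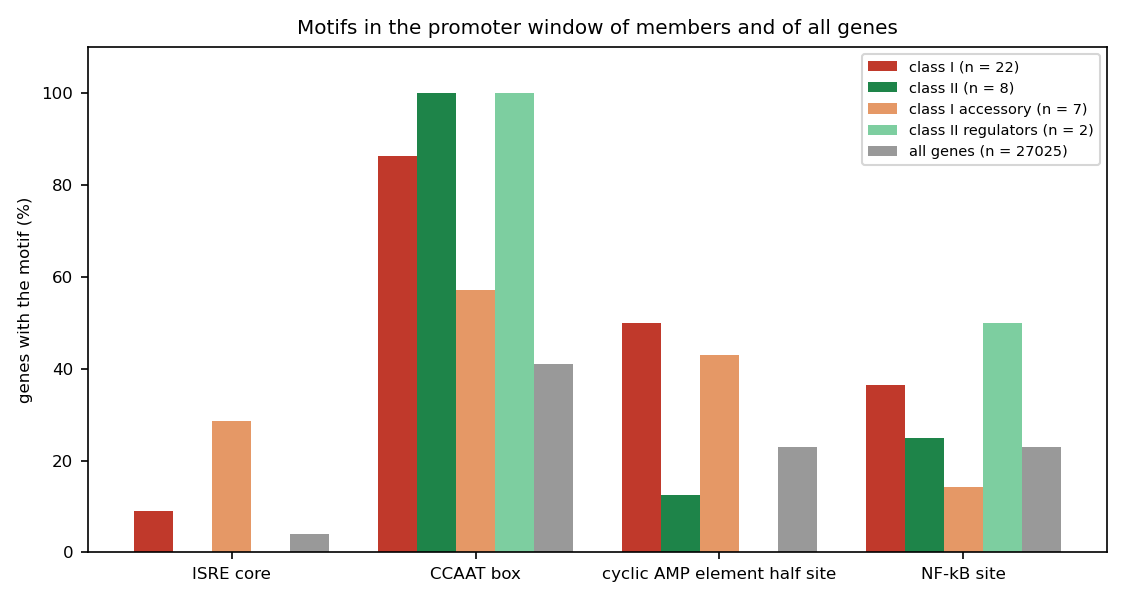
Share of genes (%) whose promoter window holds each motif, for class I genes (n = 22), class II genes (n = 8), class I accessory genes (n = 7), class II regulators (n = 2) and all genes with a window (n = 27025). The CCAAT box stands in 86.4% of class I windows and in all 8 class II windows, against 41.1% of all genes.

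The windows of 4 members are shown because their array values differed in kind: H2-D1 was level, H2-T22 was lower with Cd74, H2-Eb1 was the classical class II chain that was detected, and Rfx5 was lower with both vectors. Capitals mark exact matches to the CCAAT box on either strand and, in H2-T22, to the ISRE core as well, so variants of either are unmarked:
H2-D1: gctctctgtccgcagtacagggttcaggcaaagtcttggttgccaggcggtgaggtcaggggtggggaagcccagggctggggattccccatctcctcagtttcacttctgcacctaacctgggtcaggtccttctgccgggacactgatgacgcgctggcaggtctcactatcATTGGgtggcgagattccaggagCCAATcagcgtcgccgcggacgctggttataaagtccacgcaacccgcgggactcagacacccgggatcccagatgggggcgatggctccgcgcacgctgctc
H2-T22: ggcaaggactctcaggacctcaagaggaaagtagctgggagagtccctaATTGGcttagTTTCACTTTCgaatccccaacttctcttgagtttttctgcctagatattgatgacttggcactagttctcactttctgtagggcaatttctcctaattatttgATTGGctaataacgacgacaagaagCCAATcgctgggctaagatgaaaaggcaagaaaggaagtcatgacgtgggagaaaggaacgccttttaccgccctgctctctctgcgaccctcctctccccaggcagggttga
H2-Eb1: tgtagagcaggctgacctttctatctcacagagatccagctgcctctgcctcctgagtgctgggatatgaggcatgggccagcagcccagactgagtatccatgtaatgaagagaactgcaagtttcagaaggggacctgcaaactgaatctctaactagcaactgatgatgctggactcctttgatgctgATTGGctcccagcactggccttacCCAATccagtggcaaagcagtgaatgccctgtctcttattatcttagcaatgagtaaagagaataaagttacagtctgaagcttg
Rfx5: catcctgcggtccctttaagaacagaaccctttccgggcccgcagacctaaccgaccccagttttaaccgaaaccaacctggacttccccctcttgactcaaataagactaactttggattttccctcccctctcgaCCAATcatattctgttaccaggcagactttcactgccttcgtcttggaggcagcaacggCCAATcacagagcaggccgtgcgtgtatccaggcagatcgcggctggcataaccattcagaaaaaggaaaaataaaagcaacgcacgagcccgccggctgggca
These windows are chr17:35262844-35263143 (plus strand) for H2-D1, chr17:36042693-36042992 (minus strand) for H2-T22, chr17:34305617-34305916 (plus strand) for H2-Eb1 and chr3:94953858-94954157 (plus strand) for Rfx5, on GRCm38.p6. H2-D1 and H2-Eb1 hold 2 CCAAT boxes each, as does Rfx5, and H2-T22 holds 3. The box was in 21 of the 26 detected members with a window and in 12 of the 13 members not detected. Any part of it in the differences was not tested.

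Genes that work beside the members were read from lists chosen by role. Of 12 genes of the interferon gamma axis, which normally induces class I and Ciita, 0 were 2-fold apart in either comparison with the empty vector. Their median was -0.19 with Cd74 and -0.05 with Tmem54. The largest differences with Cd74 were those of the kinase Jak2, at -0.59 ± 0.20 (588 with Cd74, 960 with Tmem54 and 924 with the empty vector), and of the factor Irf8, at -0.58 ± 0.20 (1058, 1738 and 1651 in the same order). With Tmem54 they were those of Irf9 (-0.66 ± 0.20) and Stat2 (-0.42 ± 0.20), which drive interferon-stimulated genes. Among 9 genes of class I folding and loading in the endoplasmic reticulum, the median was -0.13 with Cd74 and 0.03 with Tmem54, and the chaperones Calr (-0.27 ± 0.20) and Canx (-0.24 ± 0.20) were lowest with Cd74. The 14 proteasome genes were even, with a median of 0.01 with Cd74 and -0.01 with Tmem54, and a range with Cd74 of -0.15 (Psme1) to 0.09 (Psmb5).

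Several genes that process antigen for class II had values above the empty vector with Cd74. Of the 10 listed, 9 were detected and the peptidase Ctss was not. Cd74 itself was the only one past 2-fold, at 8.73 ± 0.26. The median of the other 8 was 0.19 with Cd74 and 0.00 with Tmem54, and after Cd74 the largest differences were those of the lysosomal peptidases Ctsb (0.39 ± 0.20) and Ctsd (0.37 ± 0.20). Ctsb had signals of 51586 with Cd74, 40511 with Tmem54 and 41059 with the empty vector. The 8 cofactors of the X and Y boxes (NF-Y subunits and partners) had medians of -0.09 with Cd74 and -0.05 with Tmem54, the largest difference being that of Creb1 at -0.23 ± 0.20 with Cd74. Of 12 class I-like genes outside the H2 complex, 11 were detected and 0 were 2-fold apart, with medians of -0.10 with Cd74 and -0.01 with Tmem54. Their largest Cd74 differences were those of Cd1d2 (-0.28 ± 0.21), a lipid-presenting molecule, and of Fcgrt (0.27 ± 0.20), the neonatal Fc receptor.

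Checkpoint and costimulatory ligands, which set the outcome when a T cell reads an MHC molecule, had 4 of 7 genes detected. Cd86, Cd40 and Icosl were at background on all arrays. Cd274, which encodes PD-L1, had signals of 248 with Cd74, 149 with Tmem54 and 157 with the empty vector, differences of 0.73 ± 0.21 and -0.09 ± 0.21. Pdcd1lg2, which encodes PD-L2, had 145 with Cd74, 67.6 with Tmem54 and 98.7 with the empty vector, differences of 0.62 ± 0.21 and -0.56 ± 0.22. Between Cd74 and Tmem54 it was the only gene of the list past 2-fold, at 1.17 ± 0.22. Its order of arrays was also that of Cd274 and Icam1 in this list and of several members, so nothing is read from a shared order.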

How the data were processed

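Per the submitters' processing notes, the scanner files (1 per array) come from Agilent Feature Extraction 12.0.3.1. The deposited processed signal is a linear intensity after background subtraction and detrending, per the file headers, with probe coordinates on mm9. Groups came from the transfection label. Values were log2 processed signal minus the array's 75th percentile over spots other than controls, and spots with an outlier flag were left out (119 to 135 per array). For each gene the brightest probe was used, provided that 1 or more arrays had it well above background, and a difference of 2-fold was counted. Every member well above background was named. Of each list of other genes, those past 2-fold were named, and otherwise those with the largest differences. Single values of some listed genes are not reported here. Members and lists were chosen with earlier results of these data known.

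Of all probes, 43943 had a symbol in the reference table of GRCm38.p6 (33767 by accession, 9866 by symbol and 310 by synonym) and 12662 had none. H2-L and H2-T9 had no match and kept the file's name, and H2-Ea-ps is named H2-Ea in that table. The median SD between spots of the 300 probes printed 10 times was 0.04 on the log2 scale on each array. No test was run with 1 array per vector, and the number of arrays limits the precision. The counting was tested on simulated data. Python 3.11.15 was used, and limma 3.58.1 under R 4.3.3 for the alternatives. The deposited value table holds the processed signal after division by a constant for each array (560, 581 and 580 for Cd74, Tmem54 and empty), so it is linear, uncentred and unsigned, with column medians of 0.0393, 0.0390 and 0.0409.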

Additional observations from a re-analysis of the deposited data

How the results depend on the processing

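No paired analysis was possible because each vector has 1 array. Of the recomputed member counts 40 stayed within 1.5 times and 20 did not, and 89 medians stayed within their error while 4 moved. No called member changed sign. H2-Q1 stayed past 2-fold lower with Cd74 in every setting that could give it a value (log2 -1.79 to -1.58). It has 1 probe, well above background on all arrays. The settings for dim probes and for the mean over probes therefore could not change its value. With the normexp background correction, Rfx5 and Nlrc5 no longer passed 2-fold: 1 member was lower with Cd74 than with empty, 0 were lower with Tmem54, 0 were higher with Cd74 than with Tmem54, and the median of the class II regulators for Cd74 became -0.054. In that setting Rfx5 was -0.47 with Cd74 and -0.72 with Tmem54. Quantile normalization left 1 lower with Cd74. Without a filter on dim probes, H2-Ab1 made 1 higher with Cd74, H2-Ab1 and H2-T18 made 2 higher with Tmem54, 2 were higher and 2 lower with Cd74 than with Tmem54, and the class II median for Cd74 became 0.16. All these additions rest on signals at background. With the next-brightest probe (14 members), Cd74 gave 1 higher (H2-M2) and 1 lower (Erap1), Tmem54 gave 0 lower, Cd74 against Tmem54 gave 0 lower, and the regulators' medians, from Ciita alone, were 0.17 for Cd74 and 0.43 for Cd74 against Tmem54. Class II had no second detected probe. At 1.5-fold, 6 were lower with Cd74 (Ciita, H2-Q1, H2-T10, H2-T22, H2-T24 and Rfx5), 1 was higher and 2 lower with Tmem54, and 2 were higher and 2 lower with Cd74 than with Tmem54. At 3-fold these became 1 lower with Cd74, 0 lower with Tmem54 and 0 higher with Cd74 than with Tmem54. With the mean over probes, H2-M2 and not Nlrc5 passed 2-fold between Cd74 and Tmem54. Over all genes, normexp gave 58 higher and 61 lower with Cd74, against 161 and 219, and 33 and 34 with Tmem54, against 82 and 126. Genes well above background on all arrays gave 57 higher and 125 lower with Cd74, and 23 and 57 with Tmem54. Where a call was lost, the cause was not tested. Signals near background limit H2-T24, H2-M11, H2-Ob and Ciita.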

Other observations

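Some class I probes carry another name in the array files and so stood outside the members. They were chosen after their values were seen. A probe matched to H2-Q6, a gene of the Q region, is printed 10 times on each array. Its mean signal was 108799 with Cd74, 110894 with Tmem54 and 111835 with the empty vector, with a log2 SD between its 10 spots of 0.03 on each array. The log2 difference was 0.03 with Cd74 and -0.02 with Tmem54, so this class I probe was level. A probe matched to H2-Q3 had 551 with Cd74, 515 with Tmem54 and 574 with the empty vector, differences of 0.01 and -0.17. A probe beside H2-Bl that carries no gene symbol (mm9 chr17:36217026-36217085) had 135 with Cd74, 82.8 with Tmem54 and 99.4 with the empty vector, differences of 0.50 and -0.28, and 0.78 between Cd74 and Tmem54. A further probe of a class I-like locus with no assigned symbol had 1146 with Cd74, 1353 with Tmem54 and 1128 with the empty vector, differences of 0.09 and 0.25.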
